A study of Mus musculus with 8 samples.

Results

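Metallothioneins and antioxidant genes were followed in mouse calvarial osteoblastic cells, the bone-forming cells of the skull vault, as they differentiated in culture. The group comprised 10 genes taken by symbol from the 24421 genes of the expression files: Mt1, Mt2, Hmox1, Nqo1, Gclc, Gclm, Txnrd1, Srxn1, Sod3 and Gpx3. All 10 had reads in all 8 libraries and passed the filter on low values. The cells came from newborn C57BL/6 mice, 0 to 3 days old, and were either wild type (WT) or Def6-/-, which lack Def6, a guanine nucleotide exchange factor, in every cell of the body. They were expanded in medium without ascorbic acid and were sampled at day 0 or after 12 days with ascorbic acid and β-glycerophosphate, the additions that drive osteoblast differentiation. Poly-A RNA of 2 libraries was sequenced for each of the 4 groups, WT day 0, WT day 12, Def6-/- day 0 and Def6-/- day 12. The study calls these libraries biological replicates without saying whether each came from separate litters or cultures, so p-values measure only the spread between these libraries.

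Metallothioneins are small cysteine-rich proteins that bind zinc and copper, and their genes are switched on by the zinc sensor MTF1 through metal response elements. Most of the other genes of the group belong to the Nrf2 program. The transcription factor Nrf2, encoded by Nfe2l2, is held down by Keap1 and, when electrophiles or oxidants modify Keap1, activates genes that carry antioxidant response elements, where Bach1 acts as a repressor. Sod3 and Gpx3 encode secreted enzymes that act on superoxide and peroxides outside the cell.

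The promoter sequences of 4 members are shown as examples. They belong to both metallothioneins, to an antioxidant gene that changed, Nqo1, and to one without a called change, Srxn1. A link between these sequences and the changes was not tested. Each run gives the 250 bases before the RefSeq transcription start on the gene's strand, 5′ to 3′, build GRCm38.p6. Capitals mark the metal response element core TGCACNC or TGCGCNC and the antioxidant response element core TGACNNNGC or TGAGNNNGC, on either strand. The Mt1 run lies at chr8:94178839-94179088 and the Mt2 run at chr8:94172368-94172617, both on the plus strand. The Nqo1 run lies at chr8:107403206-107403455 on the minus strand, and the Srxn1 run at chr2:152105274-152105523 on the plus strand.
Mt1: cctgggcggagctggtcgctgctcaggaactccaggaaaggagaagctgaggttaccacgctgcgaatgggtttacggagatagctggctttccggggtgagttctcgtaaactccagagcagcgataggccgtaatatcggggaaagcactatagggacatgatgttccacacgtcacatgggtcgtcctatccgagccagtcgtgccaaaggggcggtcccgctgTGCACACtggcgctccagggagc
Mt2: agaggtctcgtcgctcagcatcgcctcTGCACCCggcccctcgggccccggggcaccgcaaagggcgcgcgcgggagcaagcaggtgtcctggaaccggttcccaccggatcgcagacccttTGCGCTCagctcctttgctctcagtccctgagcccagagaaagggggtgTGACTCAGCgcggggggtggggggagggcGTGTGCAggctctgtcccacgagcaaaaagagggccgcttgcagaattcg
Nqo1: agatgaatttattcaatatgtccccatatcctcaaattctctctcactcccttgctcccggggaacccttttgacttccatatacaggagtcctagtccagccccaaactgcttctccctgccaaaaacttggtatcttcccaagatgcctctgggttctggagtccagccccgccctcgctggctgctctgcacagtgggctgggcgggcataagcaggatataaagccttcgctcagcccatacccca
Srxn1: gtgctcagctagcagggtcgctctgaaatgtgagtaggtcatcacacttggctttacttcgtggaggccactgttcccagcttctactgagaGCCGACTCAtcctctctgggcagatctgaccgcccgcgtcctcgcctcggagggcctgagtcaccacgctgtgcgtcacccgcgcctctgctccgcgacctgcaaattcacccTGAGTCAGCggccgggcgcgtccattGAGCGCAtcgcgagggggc
In the whole 300-base window, which also holds the 50 bases from the start, Mt1 had 3 matches to the metal response element core, 1 of them before the start, and Mt2 had 4, 3 of them before the start. The Mt2 window also held 1 match to the antioxidant response element core. The RefSeq start of Mt2 lay before the first base of the gene in GENCODE, 94172664, and its window matched no GENCODE transcript start. The windows of Mt1, Nqo1 and Srxn1 matched one. Where a gene has other starts, the counts before the start could differ. Srxn1 had 3 matches to the antioxidant core and 1 to the metal core, and Nqo1 had none of either. Among members not shown, Gclm had 1 match to the antioxidant core and 3 to the metal core, and Gpx3 had none. Txnrd1 had 1 antioxidant match at 1 of its RefSeq starts and no metal match. Bases farther upstream were not searched. Matches are common, since 25.7% of the 32851 promoters in the RefSeq table held the metal core and 27.8% the antioxidant core, and a match is a description of letters and not a binding site. Mt2 and Mt1 are neighbours on chromosome 8 with 5513 bases between them, and Mt2 shares exon bases with Gm45774 on the opposite strand. Gclm overlaps Gm17494 on the opposite strand and Gm6061 on its own strand. Overlaps on opposite strands cannot be told apart where reads were counted without strand, and the overlap with Gm6061 cannot by strand at all. Gm45774, Gm17494 and Gm6061 were not among the genes measured.

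Between 2414856 and 3482835 reads fell on genes in each library. Def6 had 112 to 186 reads in the WT libraries and 0 to 2 in the Def6-/- libraries. The labelled cell type was checked against markers listed for the purpose: the summed level of 11 osteoblast markers was 29004 to 43524 normalized CPM (CPM, reads per gene scaled to the library's reads on genes) at day 0 and 81640 to 115930 at day 12. WT day 0 replicate 1 stood apart from the other day 0 libraries. Its correlation with them across genes was 0.927 to 0.951, whereas the other 3 day 0 libraries reached 0.977 to 0.984 with their closest partner, 34.9% of its reads aligned to more than 1 place against 21.5% to 26.6% elsewhere, and 4 myofibroblast markers summed to 17539 normalized CPM against 6926 to 8517. Markers of other cell types moved with time as well, in both directions. Of 16 macrophage markers, the 10 with whole-read values summed to 174 to 391 normalized CPM at day 0 and to 3073 to 6151 at day 12, and 10 adipocyte markers went from 80.9 to 104 up to 577 to 716. The myofibroblast markers summed to 2423 to 2678 at day 12, below every day 0 library, and 5 chondrocyte markers to 1974 to 3819 at day 0 and 821 to 1218 at day 12. Endothelial markers were near 0, and Hba-a1, Hba-a2, Hbb-bs and Hbb-bt had no reads. The part of these cells in the results on the antioxidant genes was not tested. In such bulk samples, fewer cells of a type and less RNA per cell cannot be told apart.

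From day 0 to day 12 the group split in opposite directions. The secreted enzymes Gpx3 and Sod3 rose, Nqo1 and Txnrd1 fell, and the other 6 members did not pass the test in either genotype. In WT cells 4 of 10 members had an adjusted p under 0.05 (limma, Benjamini-Hochberg over 12348 genes), 2 higher and 2 lower, against a background of 18.3% of all tested genes, 12.7% higher and 5.64% lower. In Def6-/- cells the same 4 members were called in the same directions, against 16.8% of all genes, 12% higher and 4.79% lower. The median log2 fold change of the members was 0.09 in WT and 0.04 in Def6-/- cells, and that of all genes was 0.00 and 0.01. The libraries of both days did not overlap for 6 members in WT, where 55.9% of all genes did not overlap, and for 8 in Def6-/-, where 67.6% did not.

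**Figure D1:**
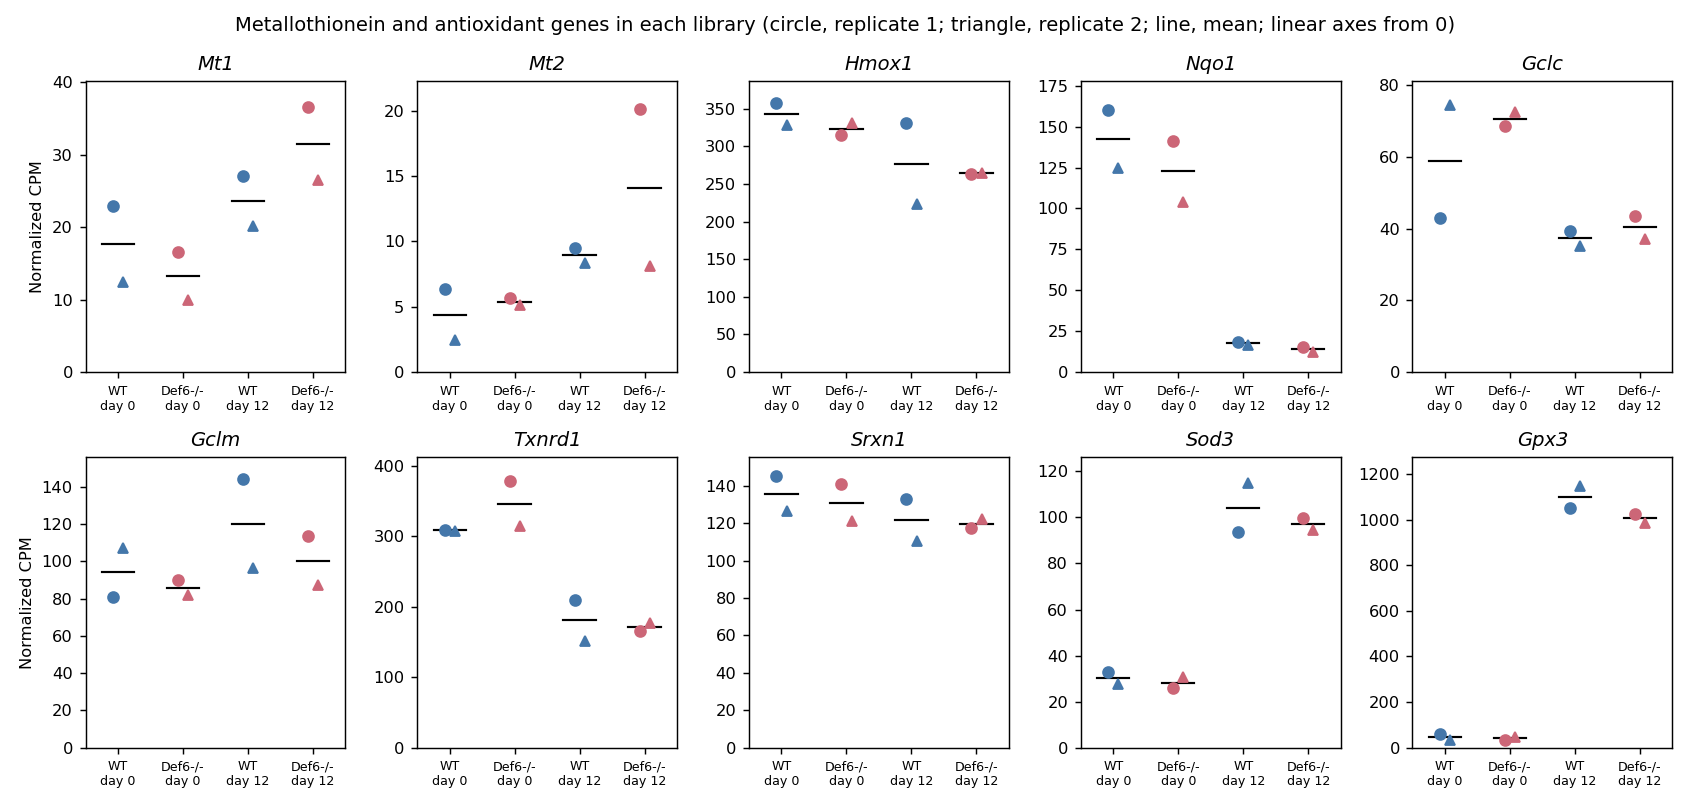
Level of each member in each library, as normalized CPM on linear axes that start at 0, for the 4 groups. Circles are replicate 1, triangles replicate 2 and lines the mean of 2 libraries. Gpx3 went from 33.9 to 60.4 at day 0 up to 985 to 1147 at day 12, and Nqo1 from 104 to 160 down to 11.95 to 18.7.

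Gpx3 encodes the secreted glutathione peroxidase, a selenoprotein that reduces peroxides in plasma and extracellular fluid. Its level was 60.4 and 33.9 normalized CPM in the WT day 0 libraries and 1051 and 1147 in the WT day 12 libraries. The Def6-/- libraries gave 33.9 and 48.0 at day 0 and 1026 and 985 at day 12. Every day 12 library was far above every day 0 library. The log2 fold change was 4.57 ± 0.28 (SE) in WT cells, adjusted p = 4.1e-05, and 4.61 ± 0.28 in Def6-/- cells, adjusted p = 4.0e-05, the largest changes among the members. Without WT day 0 replicate 1 the WT value was 4.98. At day 12 Gpx3 was 606 ± 38 normalized CPM per kb of exon in WT cells (SD, n = 2), the highest level per length of the 10 genes.

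Sod3 encodes extracellular superoxide dismutase, which binds to the matrix around cells. It measured 32.8 and 27.6 normalized CPM in WT cells at day 0 and 93.6 and 115 at day 12. The Def6-/- values were 26.0 and 30.6 at day 0 and 99.8 and 94.3 at day 12. The days were well separated in both genotypes. Sod3 rose by a log2 fold change of 1.75 ± 0.20 in WT cells, adjusted p = 0.00074, and by 1.75 ± 0.20 in Def6-/- cells, adjusted p = 0.00074. Without WT day 0 replicate 1 the WT value was 1.87.

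Nqo1, a quinone reductase of the cytosol and a classical Nrf2 target, moved the other way. It stood at 160 and 125 normalized CPM in WT cells at day 0 and at 18.7 and 16.7 at day 12. Without Def6 it stood at 141 and 104 at day 0 and at 15.6 and 11.95 at day 12. The lowest day 0 library was still several times above the highest day 12 library. Nqo1 changed by a log2 fold of -2.93 ± 0.24 in WT cells, adjusted p = 0.00013, and -3.06 ± 0.24 in Def6-/- cells, adjusted p = 0.00011. Without WT day 0 replicate 1 the WT value was -2.75.

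Txnrd1, the cytosolic selenoenzyme that keeps thioredoxin reduced, fell less. Its WT levels were 309 and 308 normalized CPM at day 0 and 210 and 151 at day 12. Its Def6-/- levels were 378 and 314 at day 0 and 165 and 176 at day 12. All day 0 libraries lay above all day 12 libraries, and both WT day 0 libraries were nearly equal. Txnrd1 changed by a log2 fold of -0.79 ± 0.20 in WT cells, adjusted p = 0.026, and -1.01 ± 0.20 in Def6-/- cells, adjusted p = 0.0091. These calls were the least firm of the 4 genes. In WT cells the call was lost without WT day 12 replicate 2, where the log2 fold change was -0.55 and the adjusted p 0.22, and without either Def6-/- day 12 library, adjusted p = 0.059. In Def6-/- cells it was lost without Def6-/- day 0 replicate 1, adjusted p = 0.10, and without Def6-/- day 12 replicate 1 or 2, adjusted p = 0.086 and 0.064.

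**Figure D2:**
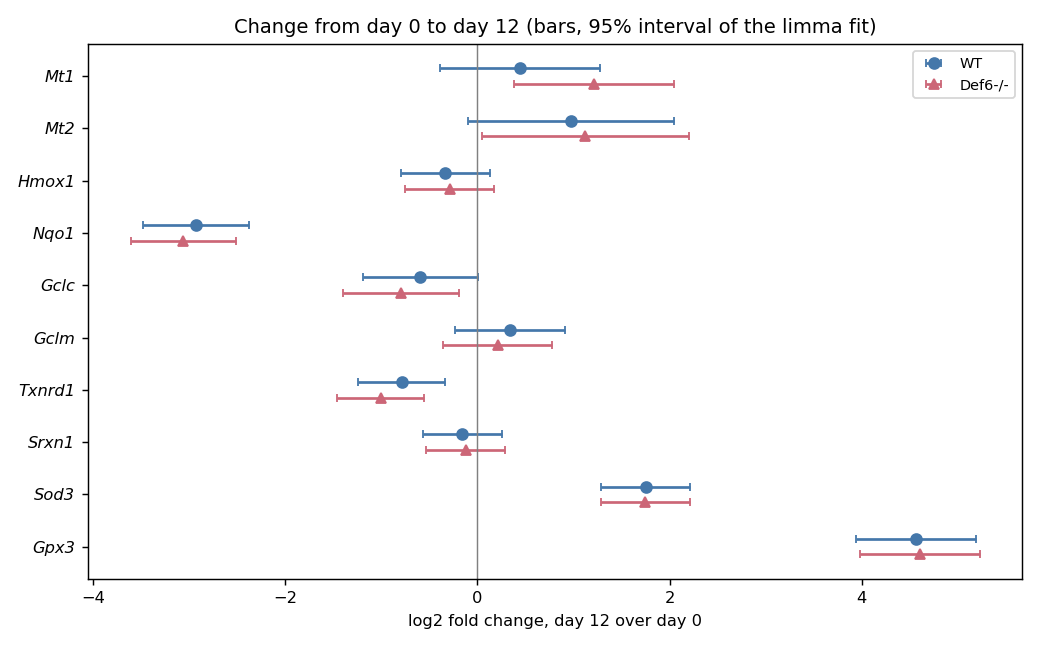
Log2 fold change from day 0 to day 12 of each member in WT cells (circles) and Def6-/- cells (triangles), with the 95% interval of the limma fit over 8 libraries. Gpx3 and Sod3 lie to the right of 0 and Nqo1 and Txnrd1 to the left in both genotypes. The intervals are not adjusted for the number of genes, and those of Mt1, Mt2 and Gclc in Def6-/- cells also leave out 0.

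Among the genes of glutathione synthesis, neither the catalytic subunit nor the modifier subunit of glutamate-cysteine ligase passed the test over time. Gclc, the catalytic subunit, measured 43.1 and 74.5 normalized CPM in WT cells at day 0 and 39.3 and 35.2 at day 12. Its Def6-/- levels were 68.5 and 72.5 at day 0 and 43.5 and 37.1 at day 12. The low day 0 value belonged to WT day 0 replicate 1, the library that stood apart. The log2 fold change of Gclc was -0.60 ± 0.26 in WT cells, adjusted p = 0.16, and -0.79 ± 0.26 in Def6-/- cells, adjusted p = 0.076. Without WT day 0 replicate 1 these became -0.98 and -0.79, and both passed. Without WT day 0 replicate 2 the Def6-/- value, again -0.79, also passed. The Def6-/- comparison holds neither library, so only the estimate of the spread changed there, and both fits called more of all genes. Gclm, the modifier subunit, measured 80.6 and 107 normalized CPM in WT cells at day 0 and 144 and 96.3 at day 12, so that the days overlapped. The Def6-/- libraries measured Gclm at 89.9 and 81.7 at day 0 and 113 and 87.1 at day 12. Its log2 fold change was 0.34 ± 0.25, adjusted p = 0.39, and 0.21 ± 0.25, adjusted p = 0.64.

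Hmox1, which breaks heme down to biliverdin, iron and carbon monoxide, was the member with the highest level per length at day 0, at 196 ± 12 normalized CPM per kb in WT cells and 185 ± 6.5 in Def6-/- cells (SD, n = 2). It measured 358 and 328 normalized CPM in WT cells at day 0 and 331 and 223 at day 12. Without Def6 it measured 316 and 332 at day 0 and 264 and 265 at day 12. The days overlapped in WT cells and did not in Def6-/- cells. Hmox1 had a log2 fold change of -0.33 ± 0.21, adjusted p = 0.30, in WT cells and -0.29 ± 0.21, adjusted p = 0.40, in Def6-/- cells. Macrophages are known for strong Hmox1 expression, and the WT day 12 libraries, with 331 and 223 for Hmox1, also differed in the summed macrophage markers, at 6151 and 3073 normalized CPM. At day 0 the Def6-/- sums of 174 and 279 went with Hmox1 at 316 and 332, and the WT sums of 391 and 229 with 358 and 328. At day 12 the Def6-/- sums of 3841 and 3328 went with 264 and 265. Within each day, Hmox1 was highest in the library with the highest sum and lowest in that with the lowest. From day 0 to day 12 the sums rose and Hmox1 did not. The part of macrophages in Hmox1 was not tested. Srxn1, which repairs overoxidised peroxiredoxins, was the steadiest member. All 8 of its values lay between 111 and 145 normalized CPM, and its log2 fold change was -0.16 ± 0.18, adjusted p = 0.59, in WT cells and -0.12 ± 0.18, adjusted p = 0.71, in Def6-/- cells.

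The metallothioneins were expressed at low levels, and their day 12 means were above their day 0 means in both genotypes without passing the test. Mt1 measured 22.9 and 12.4 normalized CPM in WT cells at day 0, from 58 and 35 reads, and 27.0 and 20.1 at day 12, from 94 and 48 reads. Without Def6, Mt1 measured 16.6 and 9.88 at day 0, from 44 and 29 reads, and 36.5 and 26.5 at day 12, from 89 and 62 reads. The days overlapped in WT cells and were apart in Def6-/- cells. The log2 fold change of Mt1 was 0.44 ± 0.37, adjusted p = 0.44, in WT cells and 1.22 ± 0.37, adjusted p = 0.054, in Def6-/- cells. The Def6-/- value lay at the threshold. It passed in fits without WT day 0 replicate 1 or without replicate 2. With only the libraries of the 2 groups it also passed, adjusted p = 0.011 (limma). In these fits it stayed at 1.22, so only the estimate of the spread changed. They also called more of all genes, 3910 in place of 2078 with only the libraries of the 2 groups. By DESeq2 the value was 1.25, adjusted p = 0.042. Over all its alternatives the adjusted p ranged from 0.0047 to 0.29. Mt2 measured 6.32 and 2.47 normalized CPM in WT cells at day 0 and 9.47 and 8.37 at day 12. Without Def6, Mt2 measured 5.64 and 5.11 at day 0 and 20.1 and 8.11 at day 12, from 15, 15, 49 and 19 reads. The highest value came from 1 library, Def6-/- day 12 replicate 1. Mt2 had log2 fold changes of 0.97 ± 0.47, adjusted p = 0.19, in WT cells and 1.12 ± 0.47, adjusted p = 0.15, in Def6-/- cells. Without WT day 0 replicate 1 these were 1.51 and 1.12, and both passed. Without WT day 0 replicate 2 the Def6-/- value, again 1.12, also passed. The Def6-/- comparison holds neither library, so only the estimate of the spread changed there, and both fits called more of all genes. The brain metallothionein Mt3 and the epithelial Mt4 did not pass the filter, with a mean of at most 0.29 normalized CPM in any group. Across the 8 libraries Mt1 and Mt2 had a Pearson correlation of 0.85 on the log2 scale, as a description.

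Per kb of exon, the order of the members changed with time in WT cells. At day 0 Hmox1 led at 196 normalized CPM per kb, followed by Nqo1 at 91.8, Srxn1 at 48.1, Txnrd1 at 43.5 and Gpx3 at 26.0. Gpx3 at 26.0 ± 10, Gclc at 15.6 ± 5.9, Gclm at 14.9 ± 3.0 and Mt1 at 14.2 ± 6.0 (SD, n = 2) did not differ beyond their spread. Nor did Srxn1 and Txnrd1, Mt1 and Sod3 at 8.07 ± 0.99, or Sod3 and Mt2 at 7.48 ± 4.6. At day 12 Gpx3 led at 606, followed by Hmox1 at 158, Srxn1 at 43.2, Sod3 at 27.9, Txnrd1 at 25.5, Gclm at 19.1, Mt1 at 18.9, Mt2 at 15.2, Nqo1 at 11.4 and Gclc at 9.89. Nqo1 thus moved from the second place to the ninth. Its place next to Gclc is uncertain, since Nqo1 at 11.4 ± 0.87 and Gclc at 9.89 ± 0.78 did not differ beyond their spread. Neighbours from Sod3 down to Mt2 did not differ beyond their spread at day 12. The annotated exons of Mt1 together cover its whole gene of 1246 bases, so any intron of a shorter transcript is counted as exon. For such a transcript the level of Mt1 per kb is understated, and its place in both orders is uncertain.

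Whether loss of Def6 changed these genes was asked at each day. At day 12 none of the 10 members differed between Def6-/- and WT cells by adjusted p (background 0.0081% of all genes) or by an unadjusted p under 0.05 with more than 1.2-fold, the rule the study used (background 1.4%, 0.81% higher and 0.591% lower). No member had an unadjusted p under 0.05 by limma, edgeR or DESeq2, and an exact permutation test of 2 against 2 libraries cannot go below p = 0.333. The log2 fold changes ranged from -0.35 for Nqo1 to 0.49 for Mt2, with a median of -0.05 against 0.00 for all genes. Nqo1 and Gpx3 were the 2 members whose genotypes did not overlap at day 12, both lower in Def6-/- cells, while 32.7% of all genes did not overlap. The 95% interval of the difference ran from -0.90 to 0.20 for Nqo1 and from -0.75 to 0.50 for Gpx3. For Hmox1 it ran from -0.51 to 0.43, for Srxn1 from -0.43 to 0.39 and for Sod3 from -0.56 to 0.37. The widest interval was that of Mt2, from -0.59 to 1.56.

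At day 0 none of the 10 members was called either, against backgrounds of 0.0081% by adjusted p and 2.3% by the rule of the study, and again none had an unadjusted p under 0.05 by limma, edgeR or DESeq2. The log2 fold changes of Def6-/- over WT ranged from -0.37 for Mt1 to 0.34 for Mt2, with a median of -0.09 against -0.02 for all genes. Txnrd1 was the 1 member without overlap, higher in Def6-/- cells by 0.16 ± 0.20 on the log2 scale, while 22.6% of all genes did not overlap. Most of the day 0 values changed sign when single libraries were left out. Without WT day 0 replicate 1 this held for 5 members, Mt1 (0.0479 against -0.37 with it), Gclc (-0.0799 against 0.31), Srxn1 (0.0460 against -0.05), Sod3 (0.0326 against -0.09) and Gpx3 (0.24 against -0.16). Mt2 and Gclm changed sign without WT day 0 replicate 2 and Nqo1 without Def6-/- day 0 replicate 2, whereas Hmox1 and Txnrd1 kept their sign whichever library was left out. With WT day 0 replicate 1 as the lone WT library, assumed to vary like the other groups, Gclc reached 0.70, adjusted p = 0.020, and Gpx3 -0.57, adjusted p = 0.039, and the same fit called 2946 of all genes in place of 1.

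**Figure D3:**
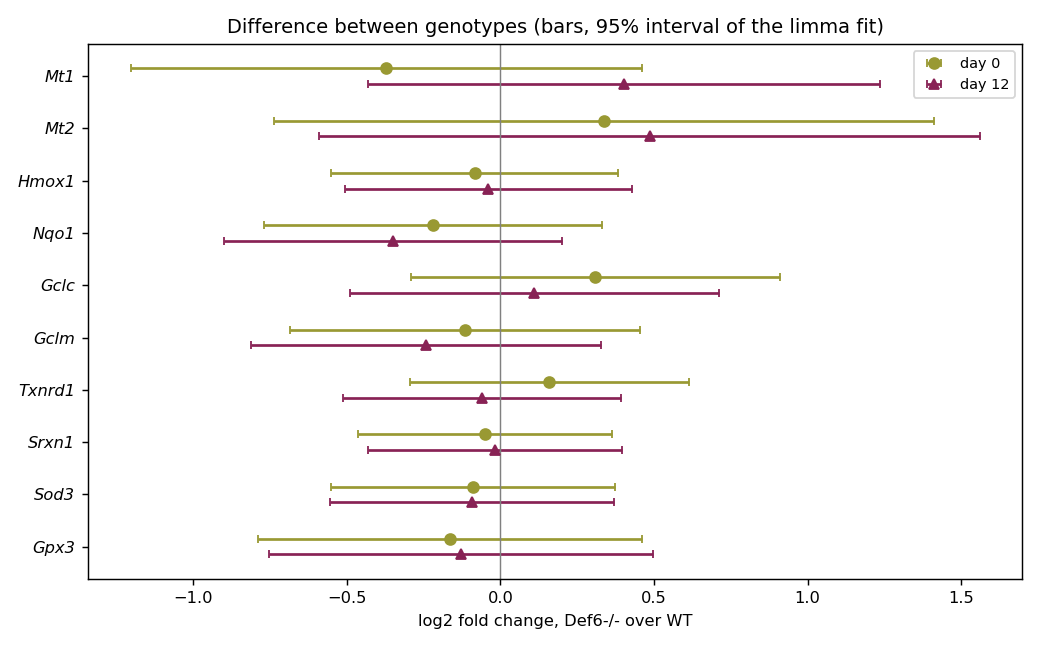
Log2 fold change of Def6-/- over WT for each member at day 0 (circles) and day 12 (triangles), with the 95% interval of the limma fit over 8 libraries. All 20 intervals include 0, and those of Mt1 and Mt2 are the widest.

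The change over time was also compared between genotypes by an interaction term. None of the 10 members was called by adjusted p (background 0.0%) or by the rule of the study (background 1.12%), and no member had an unadjusted p under 0.05 by limma, edgeR or DESeq2. The interaction ranged from -0.22 ± 0.28 for Txnrd1 to 0.77 ± 0.52 for Mt1 on the log2 scale. For Mt1, whose change was 0.44 in WT and 1.22 in Def6-/- cells, the 95% interval of the interaction ran from -0.40 to 1.95, unadjusted p = 0.17 (limma).

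Genes around the group were counted by lists, beside the shares of all tested genes called over time, 18.3% in WT and 16.8% in Def6-/- cells. Of 11 tested Nrf2 regulators, 1 rose and 1 fell in WT cells and 0 rose and 1 fell in Def6-/- cells, shares near or under those of all genes. Nfe2l2 itself went from 127 ± 9.0 to 98.2 ± 9.2 normalized CPM in WT cells and from 135 ± 8.0 to 89.7 ± 8.5 in Def6-/- cells (SD, n = 2), log2 fold changes of -0.37, adjusted p = 0.18, and -0.59, adjusted p = 0.051. Keap1, its inhibitor, rose in WT cells, from 67.0 ± 14 to 121 ± 5.2 normalized CPM, a log2 fold change of 0.86, adjusted p = 0.018. In Def6-/- cells the value for Keap1 was 0.66, adjusted p = 0.051. Maff, a small Maf protein that pairs with Nrf2 and Bach1, fell in both genotypes, with log2 fold changes of -2.77 in WT and -2.13 in Def6-/- cells. The repressor Bach1 had log2 fold changes of 0.66, adjusted p = 0.17, and 0.42, adjusted p = 0.41. The median of the list was -0.25 in WT and -0.22 in Def6-/- cells.

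Other Nrf2 targets moved both ways, as the members did. Of 31 tested, 5 rose and 3 fell in WT cells, and 8 rose and 2 fell in Def6-/- cells, where 18.3% and 16.8% of all genes were called. The median was 0.21 in both. The glutathione transferases Gsta3 and Gstm1 rose, by log2 fold changes of 3.51 and 1.31 in WT and 3.04 and 1.40 in Def6-/- cells. Gstm2 rose by 1.13 and 1.40. Akr1b8, an aldo-keto reductase, rose by 1.35 and 1.36, and the ferritin heavy chain Fth1 by 1.14 and 1.43. Trib3, a stress-induced pseudokinase, fell in both, with log2 fold changes of -3.64 in WT and -2.72 in Def6-/- cells, and in WT cells Gstp1 and Ugdh fell, at -1.11 and -0.80. Abcc1, an exporter of glutathione conjugates, fell in Def6-/- cells, at -0.78. Glutathione transferases and ferritins have near-identical copies, so their values are uncertain where reads could be split between copies.

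Of 20 tested metal handling genes, 2 rose and 0 fell in WT cells and 3 rose and 1 fell in Def6-/- cells, beside 18.3% and 16.8% of all genes. The medians were 0.05 and 0.07. Ceruloplasmin (Cp), a copper-carrying ferroxidase, went from 13.9 ± 3.4 to 213 ± 14 normalized CPM in WT cells and from 17.8 ± 7.1 to 205 ± 32 in Def6-/- cells (SD, n = 2), log2 fold changes of 3.86 and 3.502. The iron exporter Slc40a1 rose by 1.32 and 1.37, and the zinc importer Slc39a8 rose in Def6-/- cells by 1.68. The zinc transporter Slc39a6 fell in Def6-/- cells by 0.75. Mtf1, the metal-sensing factor of the metallothionein genes, had log2 fold changes of -0.18, adjusted p = 0.61, and 0.05, adjusted p = 0.92.

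Of 27 tested further enzymes against reactive oxygen, 2 rose and 1 fell in WT cells and 4 rose and 0 fell in Def6-/- cells, under the 18.3% and 16.8% of all genes. The medians were -0.08 and -0.03. Catalase (Cat) rose by 1.46 in WT and 1.27 in Def6-/- cells, the biliverdin reductase Blvra by 1.21 and 1.33, and the mitochondrial peroxiredoxin Prdx3 fell by 1.03 in WT cells. Gpx7, a peroxidase of the endoplasmic reticulum, rose in Def6-/- cells by 1.07. At day 0 the median of this list was -0.41 between Def6-/- and WT cells, against -0.02 for all genes, with 0 of 27 genes called, and it was 0.12 without WT day 0 replicate 1. Glucocorticoids are another known inducer of metallothioneins. Of 9 tested glucocorticoid responsive genes, 0 rose and 3 fell in WT cells and 0 rose and 1 fell in Def6-/- cells. Of all genes, 12.7% and 12% were called higher and 5.64% and 4.79% lower, so that 0 risers among 9 genes is near the background. The 3 of 9 that fell in WT cells are a larger share than the 5.64% of all genes, and this difference was not tested. The medians were -0.49 and -0.17. The phosphatase Dusp1 fell, with log2 fold changes of -2.43 and -2.46, and Sgk1 and Fkbp5 fell in WT cells, at -1.28 and -1.17. No gene of these 5 lists was called between genotypes at day 0, at day 12 or in the interaction, by adjusted p or by the rule of the study.

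**Figure D4:**
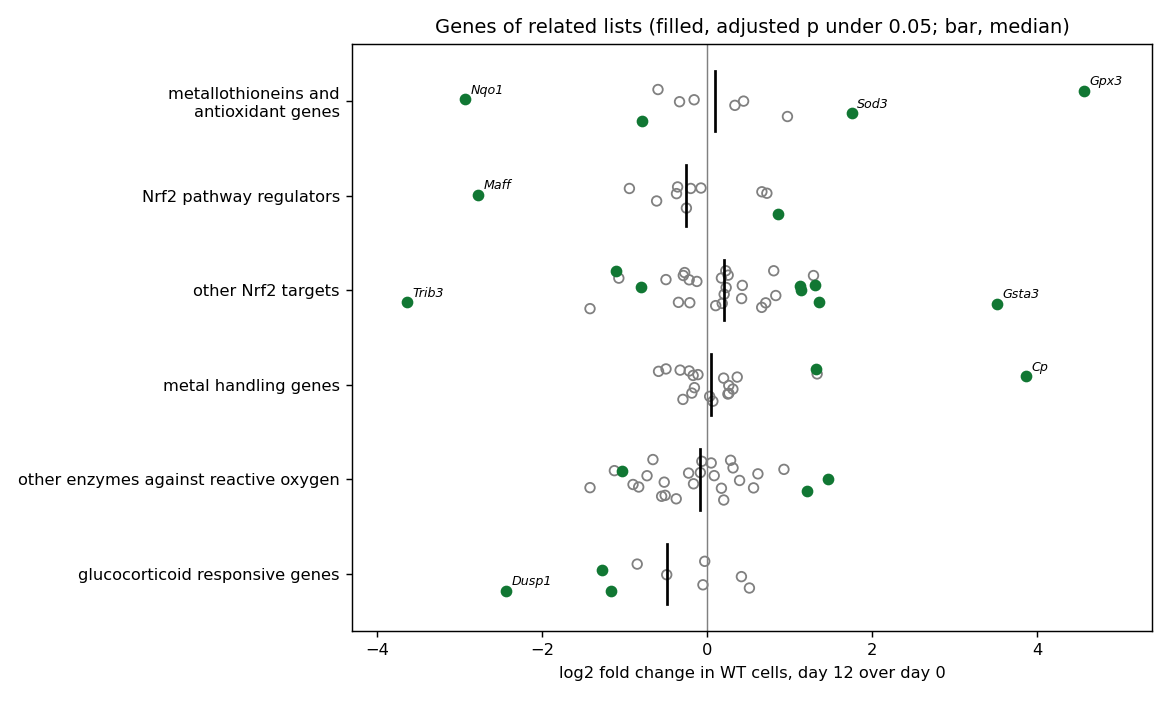
Log2 fold change from day 0 to day 12 in WT cells for the members and for 5 lists of related genes, 1 point per tested gene with random vertical offset. Filled points have an adjusted p under 0.05 (limma) and bars are medians. Both rising and falling genes are seen among the members and the other Nrf2 targets. No filled point lies right of 0 for the 9 glucocorticoid responsive genes, where 12.7% of all genes were called higher. The 3 filled points of that list lie left of 0, where 5.64% of all genes were called lower.

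The genes whose pattern over the 8 libraries was most like that of a member, by Pearson correlation of log2 levels, are given as a description, since 4 of the 8 libraries were day 12 libraries and any gene with a large change over time scores high. Gpx3 was closest to Clec11a, Mdk and Htra1 (r = 0.999, 0.999 and 0.999), and 787 genes had r above 0.95. Sod3 was closest to Mdk, Col26a1 and Penk (r = 0.998, 0.996 and 0.996), among 729 such genes. Nqo1 was closest to Ncbp1, Cited2 and Uck2 (r = 0.998, 0.995 and 0.995), among 327. Mt1 had only 13 genes above 0.95, led by Eri3, Galnt3 and Map3k10 (r = 0.993, 0.977 and 0.973). Hmox1 had 2, Csf1r and Eng (r = 0.983 and 0.960), but the Csf1r values are not whole reads, and Cers2 followed at 0.9498. Between members, Sod3 and Gpx3 correlated at 0.997 and Nqo1 and Txnrd1 at 0.949.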

How the data were processed

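RNA was measured in 8 libraries of calvarial osteoblastic cells. According to the methods and the submitters' processing notes, the authors used fastp, ran HISAT2 against mm10, took gene counts from HTSeq and turned them into CPM with edgeR (versions are not given in the sources used here). The values they deposited are CPM per gene and library, scaled to all reads, so that rows naming no gene took 64.7% to 71.2% of each library and were left out. Within a tolerance of 0.05, 99.96% of 114821 positive values were whole multiples of what 1 read is worth. The exceptions lay in 9 genes, none of them a member. CPM were rescaled to reads on genes with TMM factors (normalized CPM), and genes with a mean of at least 1 deposited CPM in any group were kept. limma 3.58.1 (R 4.3.3, trended eBayes) was fitted to log2(normalized CPM + 1), on which fold changes of low genes are understated, with 4 group means over all 8 libraries. Benjamini-Hochberg adjustment covered 12348 genes. edgeR 4.0.16 and DESeq2 1.42.0 on recovered reads, pseudocount 0.1, no filter, CPM as deposited, only the libraries of the 2 groups, a replicate block and leaving out each library were alternatives. Intervals and errors rest on 2 libraries a group.

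The members and lists were chosen with earlier results of these data known. All 10 members were named, with up to 3 genes per direction from each list with the largest called change over time, the regulators Nfe2l2, Keap1, Bach1 and Mtf1, and the 3 genes most like Mt1, Hmox1, Nqo1, Sod3 and Gpx3. Mt3 and Mt4 were named after their values were seen. Exon lengths and positions came from GENCODE M21 (GRCm38, the build of mm10), and promoters from RefSeq, where 7 of the 10 members matched an entry. The members lie on chromosome 8 (Mt1 94179082 to 94180327, Mt2 94172664 to 94173568, Hmox1 75093621 to 75100589, Nqo1 107388225 to 107403206), 9 (Gclc 77754535 to 77794485), 3 (Gclm 122245557 to 122270732), 10 (Txnrd1 82833951 to 82897712), 2 (Srxn1 152105516 to 152111376), 5 (Sod3 52363791 to 52371418) and 11 (Gpx3 54902453 to 54910377).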

Additional observations from a re-analysis of the deposited data

How the results depend on the processing

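Of 628 member values under alternatives, 580 kept their direction and side of the threshold, 8 lost a call, 14 gained one and 26 changed sign. The values covered all members in both comparisons over time and both between genotypes. The interaction was included for Mt1 and Txnrd1 only. No called value changed sign, and Gpx3, Sod3 and Nqo1 kept their calls over time under every alternative. In WT cells 1 member fell in place of 2 with CPM as deposited and with only the libraries of the 2 groups, since Txnrd1 lost its call (adjusted p = 0.083 and 0.13), and 1 to 3 fell when each library was left out in turn. In Def6-/- cells the members that rose numbered 2 to 4 and those that fell 1 to 3 on leaving out libraries. At day 0 the genotypes gave 0 to 1 member higher and 0 to 1 lower by adjusted p, 0 to 1 higher and 0 to 2 lower by the rule of the study, and the interaction 0 to 1 higher and 0 to 1 lower by that rule, the nonzero counts all without WT day 0 replicate 2.

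Mt1 in Def6-/- cells passed with only the libraries of the 2 groups (adjusted p = 0.011) and Gclc there as well (adjusted p = 0.0042). That fit called 3910 of all genes in place of 2078. The adjusted p of Mt1 in Def6-/- cells ranged from 0.0047 to 0.29 over the alternatives. With the replicate block the count of called genes was 2552 in place of 2260 in WT and 2280 in place of 2078 in Def6-/- cells, Mt1 passed in Def6-/- cells with an adjusted p of 0.0094, and no other call on a member changed. The labels share replicate numbers without saying what they share, and the deviations of same-numbered libraries correlated at 0.09 (day, WT), 0.15 (day, Def6-/-), 0.04 (genotype, day 12) and 0.33 (genotype, day 0).

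CPM as deposited, which moved the all-gene median by 0.12 at day 0, turned the sign of these uncalled differences between genotypes: Hmox1 (0.0314 at day 12, 0.0623 at day 0), Gclm (0.0263 at day 0), Txnrd1 (0.0116 at day 12), Srxn1 (0.0519 and 0.0925) and Sod3 (0.0505 at day 0). Leaving out single libraries gave, at day 12, ranges of -0.12 to 1.09 for Mt2, -0.32 to 0.24 for Hmox1, -0.00196 to 0.22 for Gclc, -0.53 to 0.0401 for Gclm, -0.30 to 0.17 for Txnrd1, -0.15 to 0.11 for Srxn1 and -0.24 to 0.0518 for Sod3. At day 0 they were -0.79 to 0.0479 for Mt1, -0.20 to 0.88 for Mt2, -0.44 to 3.66e-05 for Nqo1, -0.0799 to 0.70 for Gclc, -0.32 to 0.0880 for Gclm, -0.16 to 0.0547 for Srxn1, -0.21 to 0.0326 for Sod3 and -0.57 to 0.24 for Gpx3. The causes were not tested.

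Counts over all genes moved more. With only the libraries of the 2 groups they were 1093 in WT, 81.4% of them higher against 69.2%, and 3910 in Def6-/-, 57.9% higher against 71.6%. The rule of the study called 173 genes at day 12, but 459 with no filter, 85 by DESeq2 and 554 with only the libraries of the 2 groups. It called 284 at day 0 and 100 with only the libraries of the 2 groups, and 138 in the interaction, 329 with no filter and 45 by DESeq2. Adjusted p gave 1 gene at day 12 and 0 with pseudocount 0.1, and 1 at day 0 and 0 with only the libraries of the 2 groups. By adjusted p, leaving out single libraries gave 838 to 5701 genes in WT, 928 to 4331 in Def6-/-, 0 to 3 at day 12, 1 to 2946 at day 0 and 0 to 1282 in the interaction. By the rule of the study it gave 108 to 457 at day 12, 155 to 4588 at day 0 and 88 to 3328 in the interaction. With 2 libraries a group, the intervals between genotypes leave differences of either sign possible for every member, and Mt2, with 7 to 49 reads a library, was the least precise member.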

Other observations

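Values that were not whole reads occurred in 9 genes, Acp5, Adgre1, Cd14, Csf1r, Ctsk, Fcgr3, Itgam, Itgb3 and Ptprc, all of them known as markers of macrophages, other blood cells or osteoclasts. Of these 9 genes, 8 or 9 per library were not whole at day 12 and 3 or 4 at day 0. The 6 of them on the macrophage list summed to 39.1 to 58.3 normalized CPM at day 0 and 33.4 to 50.5 at day 12, whereas the 10 whole-read markers of the same list, Lyz2, C1qa, C1qb and C1qc among them, summed to 174 to 391 and to 3073 to 6151. How the values of the 9 genes were made is not given in the sources used here and was not tested. No value of a metallothionein or antioxidant gene is among them, but the likeness of Hmox1 to Csf1r rests on 1 of these genes.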
